A study of Homo sapiens with 10 samples.

Results

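The subject is the set of ChIP-seq peaks that lie in the outermost 250 kb of the human autosomes, the subtelomeric ends of chr1 to chr22 in hg38. A peak was counted in an end when its centre lay there. The CTCF, H3K4me3, H3K9me3 and H3K27me3 lists called on unmasked reads held 1247 such peaks of 330281 in all, and 303831 peaks lay in the rest of the same chromosomes. Of the 44 ends, 39 hold known bases. The first 250 kb of 13p, 14p, 15p, 21p and 22p hold none and were left out. Together the ends have 8.215 Mb of known sequence and the rest has 2748 Mb. The cells were HEK-293T, a human embryonic kidney line that carries the SV40 large T antigen, and all had been transduced with lentivirus. CT cells carried a non-targeting shRNA, KD cells an shRNA against CGGBP1, and OE cells a CGGBP1-overexpressing construct. CGGBP1 is a DNA-binding protein that recognizes CGG repeats, and the series asks how its level affects where CTCF binds. CTCF was measured under all 3 conditions and each histone mark under CT and KD, and 1 input was made from cells whose transduction is not named in the labels. Each target and condition had 1 library, so a difference between conditions has no replicate check and no p-value is given. The intervals below are 95% intervals of counting error only, and neighbouring peaks are not independent. The labels state a peak threshold of p 0.0025 for CTCF in CT and KD and a looser one of 0.005 in OE, which bears on CTCF counts in OE. The repeat-masked lists, called at 0.001 in all 3 conditions, held 102, 109 and 91 CTCF peaks at the ends in CT, KD and OE, with ratios of ends to rest of 1.387, 1.621 and 1.559. The lists hold positions only, and the level of CGGBP1 and the copy number of the chromosomes in these cells are not in them.

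A human chromosome end carries an array of TTAGGG repeats, and the sequence next to it is a patchwork of segments that are shared, almost base for base, between different chromosomes. CTCF is a zinc finger protein that binds a long GC-rich motif, and loops held by CTCF and cohesin depend on the strand on which the motif lies. At subtelomeres CTCF and cohesin are known to bind beside the promoters of TERRA, the RNA that is transcribed into the telomere repeats. H3K4me3 marks active promoters, H3K9me3 marks heterochromatin and silenced repeats, and H3K27me3 is the mark of Polycomb repression. The ends of 4q and 10q hold tandem arrays of D4Z4, a repeat unit that contains the DUX4 gene, a transcription factor of the early embryo that is silent in most tissues.

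The sequences shown first lie within 2.5 kb of the first or last known base. They come from 12 of the 160, 190 and 180 CTCF peaks of the ends in CT, KD and OE. At 12 ends all 3 CTCF lists held a peak there, and the best CTCF site of each is shown with its flanks. The site is in capitals, and each sequence is written 5′ to 3′ on the strand that carries the motif. The 60 bases at 1p, on the minus strand at chr1:11202-11261, were the same at 9p, 12p and 16p. Those at 1q, on the plus strand at chr1:248944579-248944638, were the same at 21q, and those at 2q, at chr2:242182130-242182189, were the same at 4q. The other sequences were found at 1 of the 12 ends each.
1p, 9p, 12p and 16p: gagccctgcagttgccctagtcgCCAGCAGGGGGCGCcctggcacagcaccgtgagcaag
1q and 21q: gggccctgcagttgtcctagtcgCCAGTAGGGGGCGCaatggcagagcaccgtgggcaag
2q and 4q: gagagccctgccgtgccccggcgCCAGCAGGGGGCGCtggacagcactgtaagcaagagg
10q: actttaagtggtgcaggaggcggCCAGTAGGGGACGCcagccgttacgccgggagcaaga
13q: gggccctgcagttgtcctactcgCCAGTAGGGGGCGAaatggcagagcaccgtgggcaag
15q: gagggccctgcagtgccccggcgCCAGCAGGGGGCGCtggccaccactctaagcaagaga
22q: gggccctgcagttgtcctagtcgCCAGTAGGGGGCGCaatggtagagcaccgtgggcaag

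Among all CTCF peaks of the ends, the one nearest to a last known base in CT lay at 14q, between genes, and its central bases are chr14:106883223-106883522 on the plus strand. Its 5 sites are in capitals. The nearest of OE lay at 9q, at chr9:138334063-138334304 on the plus strand, had a GC content of 30.58% and held no site. The peak shown from 4q is 1 of a row of OE peaks in the repeat array, had no site, and has its central bases at chr4:190090189-190090488 on the plus strand. All sequences are from hg38.
14q: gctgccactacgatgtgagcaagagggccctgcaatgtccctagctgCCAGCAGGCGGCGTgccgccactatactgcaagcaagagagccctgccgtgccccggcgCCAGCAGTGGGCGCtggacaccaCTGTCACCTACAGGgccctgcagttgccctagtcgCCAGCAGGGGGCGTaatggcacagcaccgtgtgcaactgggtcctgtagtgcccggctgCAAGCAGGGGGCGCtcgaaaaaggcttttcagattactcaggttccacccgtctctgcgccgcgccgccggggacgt
9q: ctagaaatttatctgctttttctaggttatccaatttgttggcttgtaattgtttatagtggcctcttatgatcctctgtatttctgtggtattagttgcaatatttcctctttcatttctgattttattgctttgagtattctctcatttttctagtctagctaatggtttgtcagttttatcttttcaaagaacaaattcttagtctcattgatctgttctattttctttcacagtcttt
4q: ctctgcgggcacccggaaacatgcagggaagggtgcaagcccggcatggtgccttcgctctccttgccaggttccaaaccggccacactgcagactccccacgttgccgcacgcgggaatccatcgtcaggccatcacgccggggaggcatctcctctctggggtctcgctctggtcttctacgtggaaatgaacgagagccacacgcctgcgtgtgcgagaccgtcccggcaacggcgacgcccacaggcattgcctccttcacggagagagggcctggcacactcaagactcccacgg

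CTCF peaks were denser at the chromosome ends than in the rest of the same chromosomes in all 3 conditions. In CT the ends held 160 peaks, which is 19.48 per Mb against 14.34 per Mb in the rest, a ratio of 1.358 (1.155 to 1.586). In KD they held 190 peaks, 23.13 against 15.92 per Mb, a ratio of 1.453 (1.253 to 1.675). In OE they held 180 peaks, 21.91 against 15.94 per Mb, a ratio of 1.374 (1.181 to 1.591). The intervals overlapped widely. Ends were denser than the rest of their own chromosome on 14, 14 and 12 of 22 chromosomes under CT, KD and OE. The change from CT to KD at the ends was 1.07 times (0.8663 to 1.32) the change in the rest, and that from CT to OE was 1.012 times (0.8176 to 1.253). No difference between the ends and the rest in their response to CGGBP1 was therefore detectable at these counts.

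**Figure D1:**
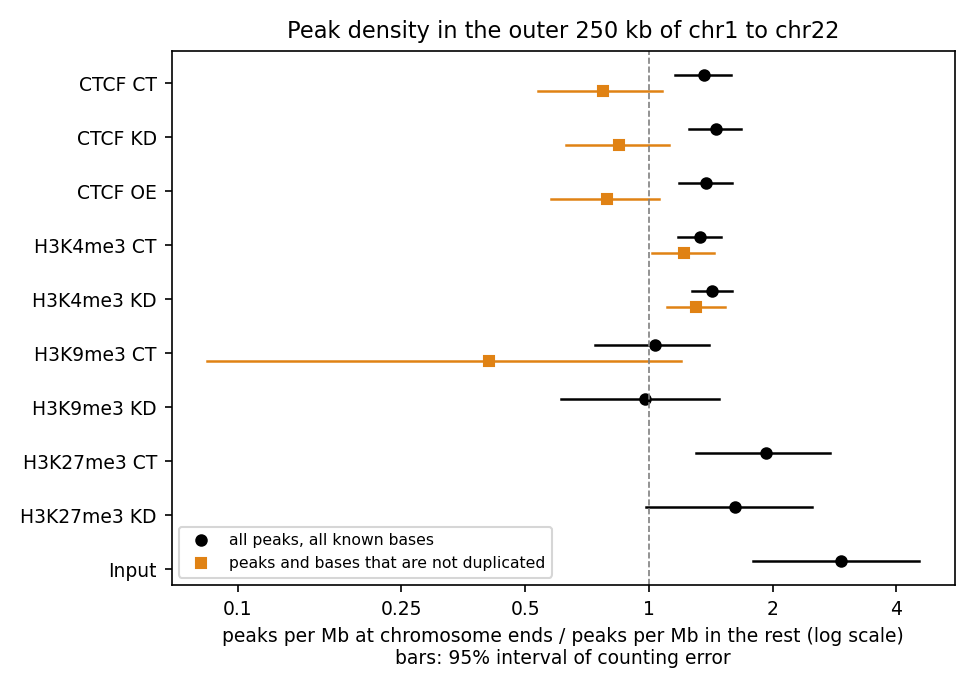
Ratio of peaks per Mb at the chromosome ends to peaks per Mb in the rest of chr1 to chr22 for each list (log axis), with bars for the 95% interval of counting error. Black points use all peaks and known bases, and orange squares only peaks and bases outside duplicated sequence, where the 3 CTCF points fall to 0.7735, 0.8464 and 0.7908. No square is drawn for a list with no peak left in the ends.

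H3K4me3 peaks were also denser at the ends. CT had 282 peaks, 34.33 against 25.84 per Mb, a ratio of 1.329 (1.178 to 1.494), and KD had 322 peaks, 39.2 against 27.55 per Mb, a ratio of 1.423 (1.272 to 1.588). The repressive marks had few peaks there. H3K9me3 had 41 peaks in CT and 22 in KD, at densities like those of the rest, with ratios of 1.033 (0.741 to 1.402) and 0.9781 (0.6126 to 1.482). H3K27me3 had 30 peaks in CT and 20 in KD, with ratios of 1.929 (1.3 to 2.757) and 1.615 (0.9854 to 2.497). The input library, which has no antibody target, had 20 peaks at the ends and the highest ratio of the 10 lists, 2.933 (1.788 to 4.541). Relative to the rest, the change from CT to KD at the ends was 1.071 times (0.9125 to 1.257) for H3K4me3, 0.9468 times (0.5636 to 1.591) for H3K9me3 and 0.8372 times (0.4748 to 1.476) for H3K27me3. Each of these intervals includes 1.

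The ends differ from the rest in sequence as well. Their GC content was 45.22% against 40.94%, and they held 929.1 CTCF sites per Mb against 593.3. Bases in 24-mers found at least 10 times in the reference, here called repeated, made up 37.74% of the ends and 22.82% of the rest. Bases in 24-mers found at least 2 times on chr1 to chr22, X and Y, here called duplicated, made up 59.14% and 32.82%. Protein-coding gene starts numbered 109 at the ends, 13.27 per Mb against 6.915 per Mb. A comparison with interior stretches of like GC content kept only the 19 ends with 41.82% to 48.33% GC. There the H3K4me3 ratios were 0.8469 (0.691 to 1.028) in CT and 0.9047 (0.7504 to 1.082) in KD. Both intervals include 1. GC-richer ends with many H3K4me3 peaks, such as 16p and 19q, were left out, so this does not show the ratio of all ends at like GC.

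The excess of CTCF lay in duplicated sequence. Of the CT peaks at the ends, 125 had at least 0.5 of their bases duplicated. They numbered 25.73 per Mb of duplicated sequence against 16.1 in the rest, a ratio of 1.598 (1.329 to 1.905). The other 35 numbered 10.43 per Mb of sequence that is not duplicated against 13.48, a ratio of 0.7735 (0.5386 to 1.076). KD had ratios of 2.307 (1.939 to 2.726) and 0.8464 (0.6281 to 1.116), and OE had 2.004 (1.678 to 2.374) and 0.7908 (0.5767 to 1.058). H3K4me3 was denser at the ends in both kinds of sequence, with 2.387 (2.02 to 2.803) and 1.216 (1.017 to 1.443) in CT and 2.492 (2.132 to 2.895) and 1.305 (1.104 to 1.532) in KD. All H3K9me3 peaks of KD, all H3K27me3 peaks and all input peaks of the ends were duplicated, as were 38 of the 41 H3K9me3 peaks of CT. A duplicated 24-mer may have its other copy anywhere on these chromosomes. The study states that reads were placed at their best match, and how many reads could be placed in duplicated sequence is not known from the lists.

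Over the first 250 kb the density of CTCF peaks was lower further from the known end of the sequence. Distances here were counted from the first or last known base of each end. Unknown bases of differing length lie outside it, so these steps do not match the 250 kb windows used above. In CT the density was 28.53 per Mb in the first 50 kb, 21.91 from 50 to 100 kb, 17.95 from 100 to 150 kb, 12.32 from 150 to 200 kb and 14.21 from 200 to 250 kb. Beyond 250 kb it went up and down, between 6.249 per Mb from 400 to 450 kb and 19.16 from 600 to 650 kb. KD began at 31.13 and 29.92 per Mb and reached 13.16 from 200 to 250 kb, and OE began at 27.49 and 26.71 and reached 13.68. From 200 to 250 kb all 3 lists were below the density of the rest of the chromosomes. H3K4me3 also fell over the first 200 kb, from 40.46 to 33.13, 31.8 and 29.78 per Mb in CT and from 50.84 to 39.0, 34.36 and 31.83 in KD. It then rose to 35.26 from 200 to 250 kb in both, and to 47.47 in CT and 49.02 in KD from 250 to 300 kb. H3K27me3 peaks of CT numbered 14, 7, 4, 1 and 4 in the same 5 steps, and input peaks 10, 7, 2, 1 and 1.

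**Figure D2:**
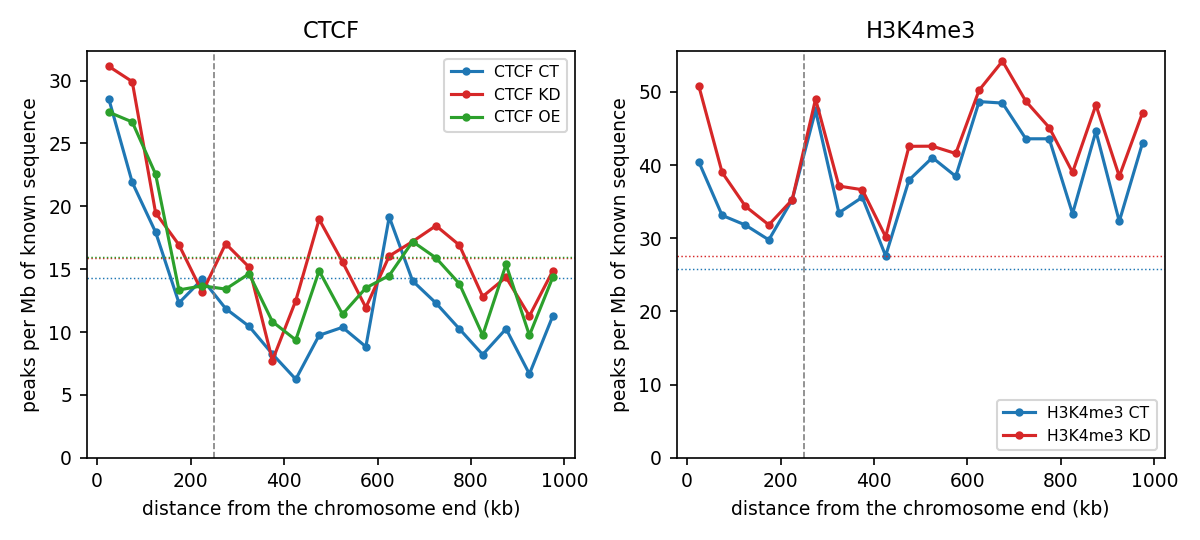
Peaks per Mb of known sequence in 50 kb steps for CTCF (left) and H3K4me3 (right), summed over the 39 ends. The x axis (kb), labelled as distance from the chromosome end, counts from the first or last known base of each end. The dashed line marks 250 kb and the dotted lines the density of the rest of each list. CTCF falls from 28.53 per Mb in CT to 14.21 in the last step before 250 kb. H3K4me3 falls over the first 200 kb, rises again and stays above its dotted line throughout.

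CTCF peaks were found at nearly every end, and their number ranged from 0 to 10 between ends in CT, from 0 to 11 in KD and from 0 to 17 in OE. Each condition had 1 end with none, 3p in CT, 7q in KD and 2p in OE. In CT the most peaks lay at 4q and 10q with 10 each and at 9q with 9. In KD 9q and 15q had 11 each and 22q had 10, and in OE 4q had 17, 10q 12 and 22q 10. KD had more peaks than CT at 22 ends, as many at 8 and fewer at 9, and OE had more at 15, as many at 15 and fewer at 9. The largest gains in KD were at 1q, from 2 to 6 peaks, and at 6q, from 4 to 8, followed by a gain of 3 peaks at each of 1p, 5p, 16q and 22q. The largest losses in KD were at 12q, from 4 to 1, at 7q, from 2 to 0, and at 9p, from 7 to 5. In OE the largest gains were at 4q, from 10 to 17, at 6q, from 4 to 9, and at 16q and 22q, from 4 to 7 and from 7 to 10. The largest losses in OE were at 2p, from 3 to 0, at 8p, from 4 to 1, and at 9p, from 7 to 4. The ends of 6q, 16q and 22q had at least 3 more peaks than CT in both conditions, and that of 9p at least 2 fewer in both. Per end these are differences of a few peaks. Ends of the long arms held more CTCF peaks per Mb than those of the short arms in all 3 conditions. The densities were 20.76 against 17.94 in CT, 25.89 against 19.81 in KD and 25.89 against 17.14 in OE. The long arms include 4q and 10q, which held 10 and 10 of the 93 long-arm peaks in CT. In KD these ends held 9 and 9 of 116, and in OE 17 and 12 of 116. The comparison was not made without them and no interval is given, so a trait of long arms in general is not shown.

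**Figure D3:**
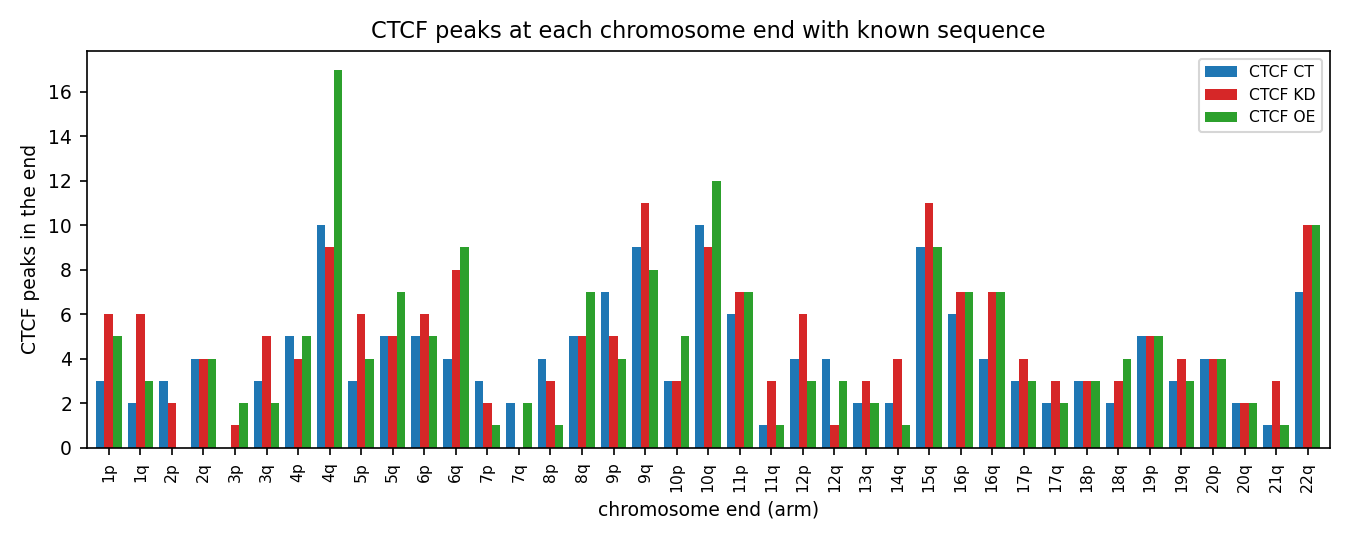
Number of CTCF peaks (y axis) at each of the 39 chromosome ends with known sequence in CT, KD and OE (1 library each). The bar of OE at 4q, 17 peaks, is the highest, and 3p, 7q and 2p each lack a bar in 1 condition.

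The peaks nearest to the first or last known base formed a set that was much alike between ends and conditions. The window of 2.5 kb and the features described for it were chosen after their values were seen. A CTCF peak was centred within it at 15 ends for CT and at 16 each for KD and OE, at 20 ends in any list and at 12 in all 3. These 12 were 1p, 1q, 2q, 4q, 9p, 10q, 12p, 13q, 15q, 16p, 21q and 22q. The distance from the last known base to the peak centre was between 994 and 2001 bp in CT (median 1475), between 1022 and 2000 bp in KD (median 1457) and between 1020 and 1901 bp in OE (median 1472). At every one of these ends the CT peak overlapped those of KD and OE. The peaks were GC-rich, with medians of 64.44%, 63.98% and 63.91%, and each held at least 2 CTCF sites and at most 5. None overlapped an input peak, and none of the 12 regions overlapped a repeat-masked CTCF peak of any condition. All were duplicated, and of the 24-mers of a region between 53.1% and 100% (median 88.53%) also lay in another of the 12. The regions thus share sequence, and the 12 ends are not independent observations. H3K4me3 overlapped 5 of the 12 in CT and 4 in KD, H3K27me3 overlapped 1 in CT and H3K9me3 none. At 5 of them the start of a DDX11L gene, a family of pseudogenes of the helicase DDX11, lay within 2 kb.

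**Figure D4:**
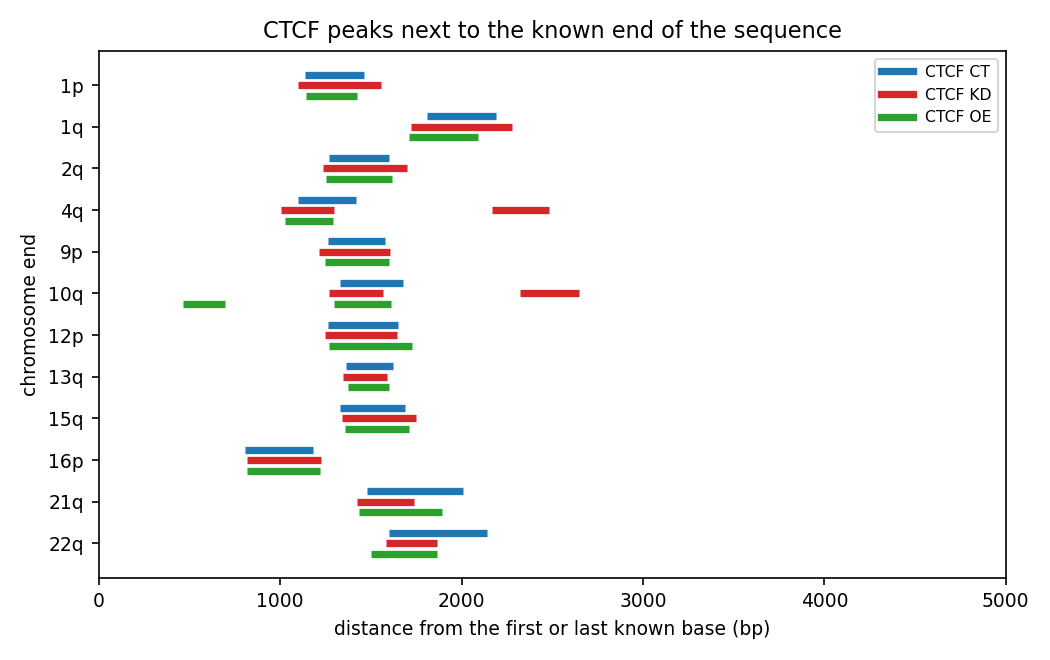
CTCF peaks of CT, KD and OE (bars, start to end) at the 12 ends where all 3 lists held a peak within 2.5 kb of the first or last known base, by distance from that base (x axis, bp). The CT peaks are centred between 994 and 2001 bp at all 12, and the bars of the 3 conditions overlap at each end.

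Within 10 kb of the known base, a CTCF peak was present at 17 (CT), 21 (KD) and 20 (OE) of 39 ends. Of those peaks 15 of 18, 22 of 25 and 18 of 23 held a site. None held 3 copies of TTAGGG in a row, on either strand. Such a run was found in 77 of 27338 windows of 300 bases at the ends (0.2817%) and in 88 of 9159667 in the rest. Nearest of all were the 14q peak shown above in CT, 346 bp from the last known base, and a 16p peak, at 994 bp. In KD they were the peak at 14q, at 420 bp, and a peak at 11q with 3 sites, at 713 bp. In OE they were the AT-rich peak at 9q, at 534 bp, and a peak at 10q with no site, at 583 bp, and neither overlapped a peak of CT. Unknown bases fill the outermost part of 14q and 9q. The 14q peak of CT lay 160346 bp from the chromosome end and the 9q peak of OE 60534 bp.

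The sites of the peaks next to the known base lay mostly on 1 strand, a feature also chosen after its values were seen. Read 5′ to 3′ along the motif as printed above, the best site ran toward the chromosome end at all 12 ends. Of all peaks with a site within 10 kb of the known base, the best site ran toward the end in 14 of 15 for CT (93.33%, 68.05 to 99.83%), in 18 of 22 for KD (81.82%) and in 15 of 18 for OE (83.33%). In the rest of the 250 kb the shares were 48.96%, 45.8% and 52.94%, and from 250 kb to 1 Mb they were 43.9%, 44.25% and 45.99%. The strand was thus one-sided near the known base and mixed further in. The regions of the 12 ends share sequence, so the peaks near the known base are not independent. Their interval is therefore too narrow, and the one-sided strand may in part reflect copies of 1 sequence, which was not tested.

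Most CTCF peaks of the ends held a site of the CTCF motif, which is named here and was searched on both strands as a matrix of 14 columns. A site was found in 111 of 160 peaks in CT (69.38%, 61.61 to 76.41%), beside 47.4% of all CT peaks on chr1 to chr22. In KD it was 153 of 190 (80.53%, 74.17 to 85.9%), beside 67.5%, and in OE 120 of 180 (66.67%, 59.27 to 73.5%), beside 58.0%. The share at the ends exceeded that of the rest by 22.01 percentage points for CT (14.86 to 29.17), by 13.1 for KD (7.449 to 18.74) and by 8.661 for OE (1.759 to 15.56). In the repeat-masked lists this difference held only for CT, at 12.36 points (3.498 to 21.23). It was -3.086 points for KD, with an interval that includes 0 (-9.566 to 3.393). In OE it was -14.66 points (-23.84 to -5.478), and sites were less common at the ends than in the rest. For comparison, 20.04% of all windows of 300 bases at the ends held a site, against 14.49% in the rest. A site at an end was also more often under a peak, but peaks covered more of the sequence there. The share of known bases under peaks at the ends was 1.487, 1.64 and 1.563 times that of the rest in CT, KD and OE. A peak held up to 14 sites, so sites are not independent. Of 7632 sites at the ends, 3.433% lay under a CT peak against 1.519% in the rest, 4.665% against 2.43% under a KD peak, and 3.787% against 2.065% under an OE peak. With the stricter site threshold the shares were 12.61% against 6.456%, 17.38% against 10.5% and 13% against 8.981%.

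The CTCF peaks of the 3 conditions merged into 310 regions at the ends. Of these 88 (28.39%, 23.43 to 33.76%) held a peak of all 3 conditions, against 21.69% in the rest. A site lay in 85 of the 88 (96.59%), against 82.29% in the rest, and 52 overlapped H3K4me3 (59.09%), close to the 57.27% of the rest. Regions of CT alone numbered 52 (16.77%, 12.79 to 21.41%), against 23.27% in the rest. Of them 9 had a site (17.31%, against 15.52%), and 71.69% of their bases were repeated, against 37.21%. Regions of KD alone numbered 63 (20.32%, against 17.72%), of which 34 had a site (53.97%, against 40.39%). Regions of OE alone numbered 66 (21.29%, against 19.41%), of which 14 had a site (21.21%, against 17.84%). Regions of KD and OE without CT numbered 23 (7.419%, 4.761 to 10.92%, against 12.8%), with a site in 19 (82.61%, against 83.37%). Those of CT and KD numbered 16, with a site in 15, and those of CT and OE 2, with a site in 1. That regions of all 3 conditions mostly had a site and regions of CT alone or OE alone mostly did not was thus seen in the rest as well. The matrix was learned from repeat-masked CT peaks that overlap KD and OE peaks. This contrast was therefore partly built in, at the ends and in the rest, and no conclusion is drawn from it. Merged regions also differ in width, which was not adjusted for.

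The share of CTCF peaks that overlapped a peak of another condition was higher at the ends than over the whole chromosomes. An overlap with a KD peak was found for 106 of the 160 CT peaks (66.25%, 58.36 to 73.52%), beside 50.2% of all CT peaks, and of the 190 KD peaks 104 overlapped a CT peak (54.74%), beside 45.2%. CT peaks overlapped OE in 92 cases (57.5%), beside 46.8%, and OE peaks overlapped CT in 90 of 180 (50%), beside 42.1%. For H3K4me3, 251 of 282 CT peaks overlapped KD (89.01%), beside 85.7%, and all but 66 of the 322 KD peaks overlapped CT (79.5%), beside 80.4%. For H3K9me3, 14 of 41 CT peaks overlapped KD (34.15%), beside 30.6%, and 13 of 22 KD peaks overlapped CT (59.09%), beside 53.7%. For H3K27me3, 17 of 30 CT peaks overlapped KD (56.67%), beside 60.3%, and 16 of 20 KD peaks overlapped CT (80%), beside 75.6%. The shares of the histone marks were thus near those of their whole lists. Those of H3K9me3 and H3K27me3 CT peaks at the ends were lower once peaks overlapping input were left out, as given below. The matching shares of the whole lists without input peaks are not given.

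The largest gain of CTCF peaks in OE lay in the D4Z4 array of 4q. A repeat unit of 3293 bp fills 28.04 kb there, chr4:190065229-190093263, with 8 whole units, and 8 of the 10 DUX4 and DUX4-like (DUX4L) genes annotated at this end start in it, all 8 of them DUX4L pseudogenes. In the array CT had 3 CTCF peaks, KD had none and OE had 10. Of the OE peaks 8, described after their values were seen, lay at the same place of the unit, 2034 to 2101 bp from its start, and neighbours were 3253 to 3341 bp apart (median 3282). The peak of chr4:190090189-190090488 printed above is the last of them. None of the 8 held a CTCF site, and their GC content was between 63.61% and 64.82%. CT had 1 peak at that place and KD none, while H3K4me3 of KD had 2, H3K9me3 2 in CT and 1 in KD, and H3K27me3 of KD 1. The input library had no peak in the array. The repeat-masked lists of CT, KD and OE also held 1, 0 and 5 peaks there. Outside the array the end of 4q had 7, 9 and 7 CTCF peaks. The repeat-masked lists have the same threshold in all 3 conditions, so the higher count of OE in this array was seen at an equal threshold too, with 1 library each. The units are near copies of each other, and the number of reads behind each peak is not known.

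At 10q the row of peaks belonged to H3K4me3. The array there has a unit of 3310 bp, spans 21.07 kb at chr10:133740609-133761680 and holds 6 whole units. H3K4me3 had 6 peaks in CT and 6 in KD, 1 to a unit, 698 to 764 bp into it in CT and 679 to 743 bp in KD. Neighbouring CT peaks were 3251 to 3351 bp apart, and all 12 peaks held a CTCF site. The units are near copies of each other, and CT and KD peaks cover the same 6 places. The 12 peaks are therefore not separate observations of a site. Of CTCF itself CT had 2 peaks in this array, KD none and OE 1. In the array of 4q H3K4me3 had 2 peaks in CT and 5 in KD.

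**Figure D5:**
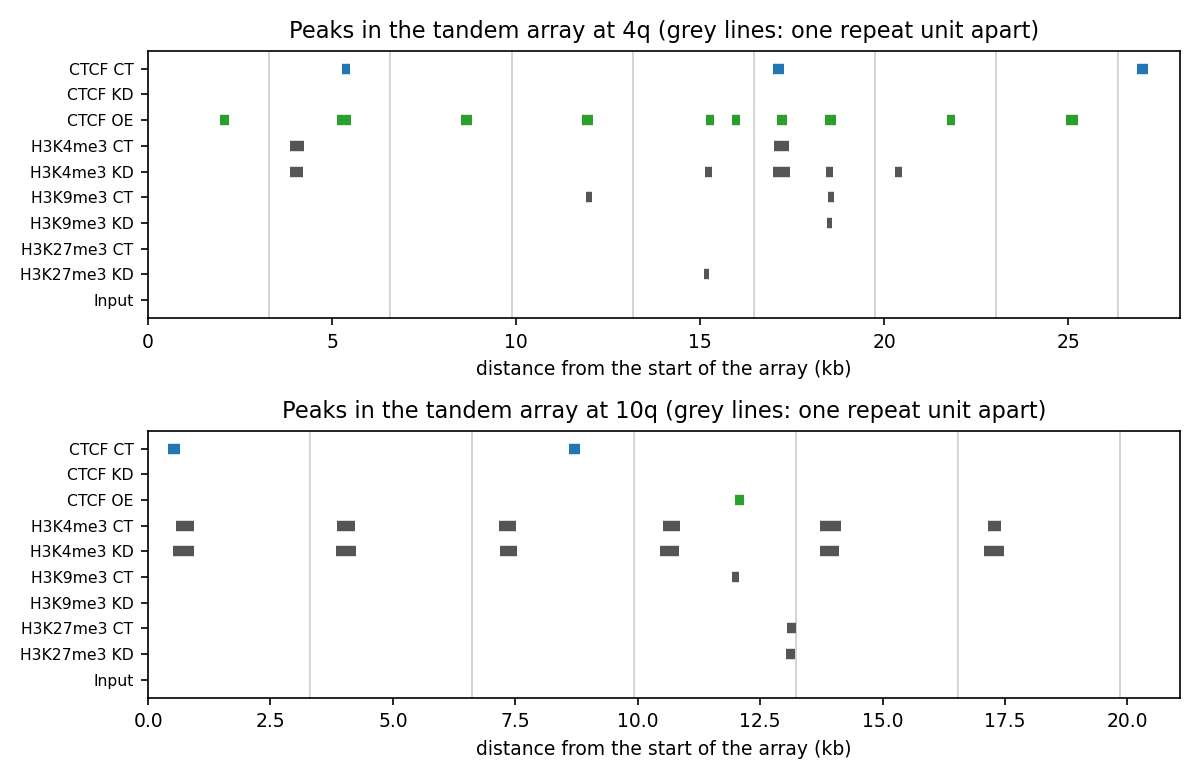
Peaks of each list (rows) in the tandem arrays of 4q (top) and 10q (bottom), by distance from the start of the array (x axis, kb), with grey lines 1 repeat unit apart. In OE 8 CTCF peaks stand 1 unit apart at 4q, and H3K4me3 has 6 peaks 1 unit apart at 10q in both conditions.

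H3K4me3 had the most peaks of any list at the ends, and 2p was the 1 end with none in CT and in KD. In CT 19q had 22 peaks, 10q 21 and 16p 18, and in KD 16p had 26, 19q 24 and 10q 22. KD had more peaks than CT at 24 ends, as many at 8 and fewer at 7. The ends of 19q and 16p are also those with the most protein-coding gene starts, 14 and 12. CTCF and H3K4me3 overlapped at 56 of the 160 CTCF peaks of CT (35.0%, 27.64 to 42.93%), against 26.68% in the rest, and at 67 of the 190 of KD (35.26%, 28.49 to 42.51%), against 33.2%.

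At gene starts H3K4me3 hardly differed between CT and KD. Of the 109 protein-coding genes that start in an end, 68 had a peak within 1 kb of the start in CT (62.39%), beside 67.2% of all protein-coding genes of chr1 to chr22, and 67 in KD (61.47%), beside 67.9%. The peak was present in both conditions at 66 of them and in neither at 40. It was present in CT alone at OR4F5 (1p, chr1:65419-71585) and OR4F17 (19p, chr19:107104-117102), both olfactory receptor genes. It was present in KD alone at WASHC1 (9p, chr9:14475-73865), a subunit of the WASH complex that drives actin assembly on endosomes. These families have near copies at other ends, so their peaks are uncertain.

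CTCF lay near few protein-coding starts, and those differed between conditions. A peak was within 1 kb at 7 of the 109 in CT (6.422%), beside 7.51% of all, at 13 in KD (11.93%, 6.506 to 19.53%), beside 11.5%, and at 4 in OE (3.67%, 1.009 to 9.13%), beside 10.1%. The share in OE was the lowest of the 3, and its interval lay below the share of all genes. The zinc finger gene ZNF268 (12q) was the 1 gene with a peak in all 3, and 15 had a peak in 1 or 2. The matching counts over all protein-coding genes are not given, so whether the ends differ from the rest in this is not known. In CT and KD but not OE, peaks lay at IQSEC3 (12p), an exchange factor of inhibitory synapses, and at 3 starts that lie side by side on 5p. These are SDHA, a subunit of succinate dehydrogenase, CCDC127 and the unnamed gene ENSG00000286001, and they share 1 promoter region. In KD alone, peaks lay at PRMT2 (21q), an arginine methyltransferase, at ZNF692 (1q), at CHL1 (3p), a neural adhesion molecule, and at PDCD2 (6q). In KD and OE they lay at SH3BP5L (1q) and SCGB1C2 (17p). In CT alone a peak lay at DOCK8 (9p), an exchange factor for CDC42. HBQ1 (16p), the theta gene of the alpha globin cluster, had a CT peak inside the 1 kb, and the KD peak that overlaps it lay just outside. Of these 12 genes, the nearest to an end of the 15 with CTCF in 1 or 2 conditions, 11 had H3K4me3 in both CT and KD, and SCGB1C2 had it in neither.

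Gene families that are repeated between chromosome ends had the following peaks at their starts, with no test between families. All 9 DDX11L pseudogenes, on 5 ends, had a CTCF peak within 1 kb of the start in CT, KD and OE. H3K4me3 lay at all 9 in CT and at 6 in KD. Starts at the same end can share 1 peak and the copies share sequence, so these are not 9 separate observations. Of 24 DUX4 and DUX4L genes on 4q and 10q, CTCF lay at 4 in CT, at 2 in KD and at 11 in OE. All 6 MIR1302 genes had H3K4me3 in CT and KD, and 1 of them had CTCF, in KD. Of 27 ZNF genes, 20 had H3K4me3 in CT and 20 in KD, and CTCF lay at 1, 3 and 3, which is near the shares of all protein-coding genes given above. No CTCF peak lay at the starts of the 7 WASH, 16 OR4F, 4 TUBB8, 3 FRG2 or 8 CICP genes in any condition. H3K4me3 lay at 3 WASH genes in CT and 4 in KD, and at 2 OR4F genes in CT and none in KD. Over all 169 pseudogenes that start in an end, CTCF lay at 13, 15 and 20 in CT, KD and OE. These are 7.692%, 8.876% and 11.83%, against 2.984%, 3.587% and 3.078% in the rest. The DDX11L and DUX4L pseudogenes counted above are among them. Their copies share sequence, so a trait of pseudogenes of the ends in general is not shown.

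Few ends held most of the H3K27me3 peaks, and H3K9me3 peaks were more spread out. In CT 10 of the 41 H3K9me3 peaks lay at 4q, 6 at 10q and 6 at 18p, and in KD 7 of 22 lay at 4q, 4 at 18p and 3 at 10q. H3K27me3 had 7 peaks at 4q, 6 at 10q and 5 at 15q in CT, and 7 at 10q, 6 at 4q and 3 at 15q in KD, where 18p also had 3. The input had 6 at 4q, 5 at 10q and 3 at 15q, and 3 at 18p. Ends with none were 21 of 39 for H3K9me3 in CT, 28 in KD, 27 and 34 for H3K27me3, and 32 for the input. At 4q peaks of both marks and of the input lay over DUX4L9 (an exon of a transcript without coding sequence) and in an intron annotated to DUX4, and at 18p in and beside the pseudogene ROCK1P1. Other peaks of these ends lay apart from input peaks. They include 5 H3K9me3 peaks of CT between genes at 4q and 1 in an intron of THOC1 at 18p. An input peak was overlapped by 12 of the 41 H3K9me3 peaks of CT (29.27%, beside 12.7% of the whole list) and 11 of the 22 of KD (50%, beside 22.75%). For H3K27me3 it was 14 of 30 in CT (46.67%, beside 36.4%) and 11 of 20 in KD (55.0%, beside 42.04%). Among CTCF peaks the shares were 6.25%, 6.842% and 6.111% in CT, KD and OE, beside 4.046%, 4.177% and 4.667%, and among H3K4me3 peaks 3.901% and 3.727%, beside 2.643% and 2.399%. Without 4q, 10q, 15q and 18p the ratio of ends to rest fell to 0.6464 for H3K27me3 in CT, 0.09019 in KD and 0.4914 for the input. For H3K9me3 it fell to 0.5347 and 0.3476. Few peaks are left in these ratios, and that of H3K27me3 in KD rests on 1 peak, at 9p. At 15q, in contrast, 4 H3K27me3 peaks of CT and 3 of KD lay over the pseudogene DNM1P47, where the input had no peak, and 1 pair of them overlapped. The remaining CT peak of 15q, chr15:101979128-101979379, lay between genes and overlapped an input peak. The study's methods and labels name opposite antibodies for these 2 marks, and each list is taken here for the mark its title names.

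How repeated the peaks of the ends were relative to the rest depended on how often a 24-mer had to occur. With at least 10 occurrences, peaks of the ends held more repeated sequence in the CTCF, H3K4me3 and H3K9me3 lists. These bases made up 53.28%, 43.95% and 48.76% of the CTCF peaks of CT, KD and OE, against 31.75%, 20.67% and 23.53% in the rest. For H3K4me3 they made up 20.13% in CT and 20.95% in KD, against 9.337% and 9.461%. The order of CTCF, highest in CT and lowest in KD, was the same at the ends and in the rest. H3K9me3 had 82.54% in CT and 92.01% in KD, against 69.0% and 84.91%. H3K27me3 had 88.33% and 94.81%, against 85.88% and 95.15%, and the input had 86.54%, against 92.25%. With at least 100 occurrences the direction turned, and peaks of the ends held less than those of the rest in every list. The shares were 13.37%, 6.671% and 7.39% for CTCF in CT, KD and OE, against 28.04%, 17.25% and 19.58%. For H3K4me3 they were close, 6.446% in CT and 6.236% in KD against 6.846% and 6.868%. For H3K9me3 they were 32.9% and 29.13% against 64.83% and 80.78%, for H3K27me3 21.76% and 25.16% against 77.16% and 86.75%, and for the input 20.38% against 80.88%. Over the whole sequence such bases made up 15.03% of the ends and 16.98% of the rest.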

How the data were processed

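ChIP-seq peaks of HEK-293T cells were analysed in 10 libraries, 1 per target and condition. According to the methods, the authors filtered single-end Ion Torrent reads (quality at least 20, length 80 to 300 b), aligned them by bowtie2 in end-to-end mode with unmasked or repeat-masked hg38 and called peaks with MACS2 in each library. Versions are not given in the sources used here. The methods state p 0.005 for unmasked reads, whereas in the labels it is 0.0025 (CTCF of CT and KD), 0.005 (CTCF of OE) or 0.001 (histone marks and input). The deposited values are positions in bp and no other unit. Starts were read as counted from 0, which may be off by 1 bp, and are printed counted from 1. The number of reads behind a peak is not known from the lists.

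A peak was placed by its centre, and densities were taken per Mb of known bases. Ratios have exact Poisson and shares exact binomial (Clopper-Pearson) intervals, and changes and differences normal ones. Genes were from GENCODE release 44. Overlap was at least 1 bp. The CTCF matrix was learned from repeat-masked CT peaks that overlap KD and OE peaks, and a site had p below 0.0001. RepeatMasker was not run, and 24-mers were counted in its place. Python 3.11.15 with numpy 2.4.6, scipy 1.17.1 and pandas 2.3.3 was used, and the density and site functions were tested on simulated data. Named were the 3 ends with most peaks of each list and, for CTCF in KD and OE, with the largest gain and loss, the 2 CTCF peaks nearest a known end, protein-coding genes whose start had H3K4me3 in 1 of CT and KD, and up to 12 with CTCF in 1 or 2 conditions. The members, lists and tests were chosen with earlier results of these data known. The 6 lists of exclusive CTCF peaks were not used.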

Additional observations from a re-analysis of the deposited data

How the results depend on the processing

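Of the 104 recomputed ratios of ends to rest, 65 moved by less than their counting error, and of the 45 recomputed changes between conditions 44 did. The CTCF and H3K4me3 excess depends on the sequence compared. With duplicated peaks left out but all bases kept, ratios were 0.4704, 0.5147 and 0.4809 for CTCF in CT, KD and OE, 0.7396 and 0.7936 for H3K4me3 and 0.2485 for H3K9me3 in CT. Per base that is not duplicated, an alternative chosen after seeing the data, they were 0.7735, 0.8464 and 0.7908 for CTCF and 0.4087 for H3K9me3 in CT. With the same GC range, which kept 19 ends, CTCF gave 1.352, 1.292 and 1.267 and H3K4me3 0.8469 and 0.9047. In that range H3K9me3 gave 1.585 and 1.932, H3K27me3 6.077 and 4.593 and the input 10.85. With ends of 100 kb, CTCF gave 1.78 in CT and 1.778 in KD, H3K4me3 1.575 and 1.853, H3K9me3 in KD 1.604, H3K27me3 in CT 2.948 and the input 5.76, and the change of H3K9me3 was 1.766. With ends of 500 kb, CTCF gave 1.029, 1.17 and 1.088, H3K27me3 1.002 and 0.74 and the input 1.684. Counted as bases covered, H3K9me3 in KD gave 1.704, H3K27me3 3.096 and 3.499 and the input 5.437. Without 4q, 10q, 15q and 18p, also chosen after seeing the data, H3K9me3 gave 0.5347 and 0.3476, H3K27me3 0.6464 and 0.09019 and the input 0.4914. With ends of 250 kb and nothing left out, the H3K9me3, H3K27me3 and input lists held 20 to 41 peaks each at the ends. Alternatives that leave out peaks or ends rest on fewer. Without duplicated peaks H3K9me3 in CT had 3. Outside 4q, 10q, 15q and 18p H3K27me3 in KD had 1, at 9p.

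The share of CTCF peaks with a site was 55.0%, 66.32% and 51.67% in CT, KD and OE at site p below 0.00001, and 86.24% in KD on repeat-masked lists, where the rest had 89.32%. In OE the repeat-masked lists gave 72.53% at the ends and 87.19% in the rest. In the repeat-masked lists the excess of sites at the ends was thus seen in CT alone. The share of CT peaks shared with KD was 82.27% (overlap of 0.5 of both peaks) and 92.43% (500 kb) for H3K4me3, and without input peaks 10.34% for H3K9me3 and 31.25% for H3K27me3. Repeated bases with 24-mers found 100 times made up 13.37%, 6.671% and 7.39% for CTCF, 6.446% and 6.236% for H3K4me3, 32.9% and 29.13% for H3K9me3, 21.76% and 25.16% for H3K27me3 and 20.38% for the input, below the rest in each list. With 500 kb they made up 35.92% and 39.84% for CTCF in KD and OE and 13.34% and 13.31% for H3K4me3. Without input peaks they made up 36.19% and 40.93% for CTCF in KD and OE, 69.99% and 86.22% of H3K9me3 and 76.77% and 99.22% of H3K27me3 peaks. The causes were not tested. No paired analysis was possible because each group had 1 library.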

Other observations

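Telomere repeats, counted as 3 copies of TTAGGG in a row on either strand, lay under 3 H3K9me3 peaks of CT at the ends, at 10p, 18q and 4q. Neither the H3K9me3 peaks of KD at the ends nor the H3K9me3 peaks of the rest held any in either condition. No CTCF, H3K4me3, H3K27me3 or input peak of the ends held them.

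Long non-coding RNA genes that start in an end numbered 151. CTCF lay within 1 kb of the start of 7.285% of them in CT, 10.6% in KD and 9.934% in OE, against 5.395%, 7.643% and 6.755% in the rest, and the intervals of the ends include these values. H3K4me3 lay at 29.8% in CT and 30.46% in KD, against 29.91% and 30.73%. Within 1 kb of the start, LINC01002 (19p) had CTCF in all 3 conditions and H3K4me3 in CT and KD. LINC02193 (16q) had CTCF in all 3 and H3K4me3 in neither within that distance. A CTCF region of all 3 conditions in an exon of LINC02193, chr16:90215256-90215745, did overlap H3K4me3. These LINC genes were singled out after their values were seen.

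Where H3K9me3 and CTCF were both measured, 17 of the 41 H3K9me3 peaks of CT overlapped a CTCF peak (41.46%, 26.32 to 57.89%) against 30.91% in the rest, and 12 of the 22 of KD did (54.55%, 32.21 to 75.61%) against 47.69%. For H3K27me3 it was 13 of 30 in CT (43.33%) against 56.91% and 11 of 20 in KD (55.0%) against 74.61%. Peaks of the input lay at the same ends as these peaks, and their part in the overlap was not tested.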
